A study of Mus musculus with 11 samples.

Results

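The N-methyl-D-aspartate (NMDA) and delta glutamate receptor subunits were compared between astrocytes of 4 brain regions. The 8 genes, taken by symbol, were Grin1, Grin2a, Grin2b, Grin2c, Grin2d, Grin3a, Grin3b and Grid1, of the 24421 entries listed per sample. RNA had been sequenced from eGFP+ cells sorted by FACS from the olfactory bulb (OB, n = 3), hippocampus (HC, n = 3), cortex (CX, n = 2) and brainstem (BS, n = 3) of 16-week-old mice. All 4 groups shared the C57BL/6 strain and the BAC Aldh1l1-eGFP transgene, in which the promoter of the astrocyte gene Aldh1l1 drives eGFP. No group received a treatment, and both sexes were used. The sort was therefore aimed at cells in which this promoter was active, and the tissue is the dissected region as a whole. Markers of other cell types were also detected in the sorted samples, as given below. The labels do not say whether the samples of a region came from separate animals, so the p-values measure only the spread between these samples.

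NMDA receptors are tetrameric cation channels that open when glutamate and a co-agonist, glycine or D-serine, are bound together. GRIN1 is the obligatory subunit and binds the co-agonist, the GRIN2 subunits bind glutamate, and the GRIN3 subunits bind glycine and lower calcium permeability and magnesium block. The delta receptor GRID1 resembles these channels in sequence but acts mainly as a synaptic organizer, bound by cerebellins that in turn bind neurexins. In the brain these subunits are best known from neurons, and astrocytes are known mainly for taking up glutamate and for handling glycine and serine.

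Normalized values, which are read counts divided by a size factor for each sample, differed most for 3 of the subunits. Grin3a was highest in the OB, Grin2c and Grin2b were lowest in the BS, and Grid1 lay in the same range in all 4 regions. In an F test over the 4 region means (limma on log2(value + 1), Benjamini-Hochberg adjusted over the 13875 genes tested), Grin3a, Grin2c and Grin2b differed between regions, with adjusted p-values of 8.32e-05, 0.000126 and 0.000259. These are 3 of the 7 subunits tested, whereas 16.5% of all genes tested were called. Grin2a (adjusted p = 0.058) and Grin1 (adjusted p = 0.0689) did not pass this limma test, nor did Grin2d (adjusted p = 0.491) or Grid1 (adjusted p = 0.803). Grin3b was removed by the low-count filter and was not tested. In bulk samples of this kind, fewer cells of a type and less RNA per cell cannot be told apart.

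**Figure D1:**
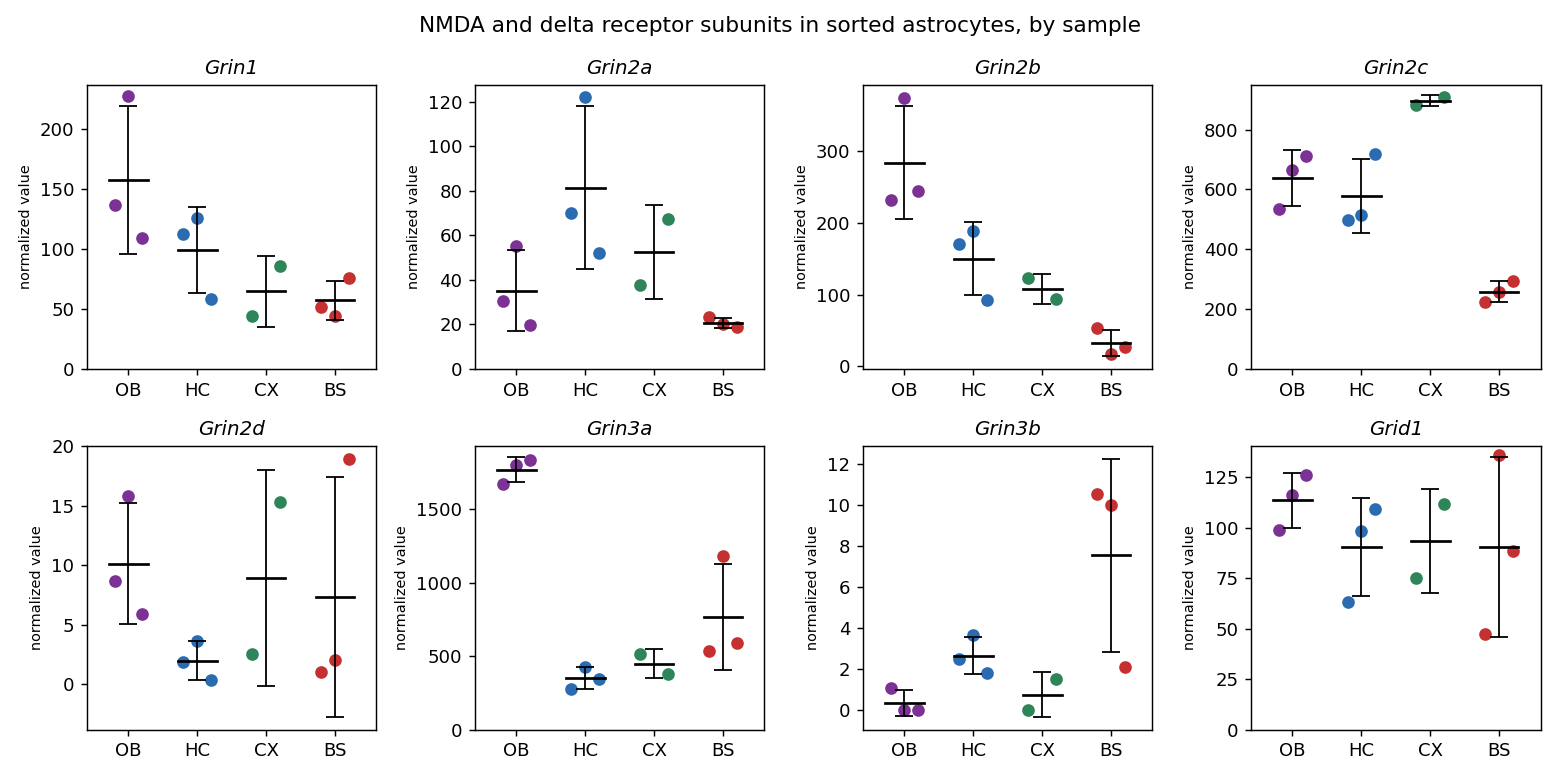
Normalized value of each subunit (y axis, from 0 or below) in every sample, by region (x axis). Points are samples, horizontal bars are region means and error bars are SD (OB, HC and BS n = 3, CX n = 2). The 3 OB samples lie above all others for Grin3a, and the 3 BS samples lie below all others for Grin2b and Grin2c.

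Before the values of each subunit, the libraries are described. Reads on genes numbered from 2830746 to 14151670 by sample, with a median of 5552215. A single read corresponded to a value between 0.367 and 2.10, and the detection floor of 3 reads to a value between 1.10 and 6.31. The floor covers counting error only. Replicates of a region differed by more than sampling noise in every pair, with a chi-square per degree of freedom of at least 7.07, and each was counted as a separate sample. The ribosomal precursor entry Rn45s took between 0.966% and 2.93% of the reads in the OB and HC samples and between 18.0% and 25.6% for CX and BS samples. The 10 astrocyte markers were detected in every region. Their summed values were 234740 to 280692 for OB, 274406 to 466755 for HC, 561412 to 636418 for CX and 97870.3 to 287214 for BS. Most of the sum was Slc1a2, with means of 507178 for CX and 128002 for BS. Not all markers had this order, since Aqp4 had its highest mean in the BS, at 14007. By the F test 2 of the 10 were called, against 16.5% of all genes tested. The 14 neuron markers were also detected in every region. Their summed values were 5158 to 6702 for OB, 3978 to 5662 for HC, 5777 to 6772 for CX and 5531 to 6251 for BS. These ranges overlapped, except those of HC and CX. By the F test 9 of the 14 were called, against 16.5% of all genes tested. Other lists also differed by region. Summed oligodendrocyte markers were 52347.7 to 90100.3 for BS samples and 9528 to 39949 elsewhere, and summed choroid plexus markers 75222.3 to 358736 for BS, 103900 to 215633 for HC and 2364 to 8191 in the other regions. The OB samples had the highest neuroblast markers, at 583 to 973 against 187 to 471, and olfactory sensory neuron markers, at 269.9 to 561 against 2.003 to 6.13. Summed oligodendrocyte precursor markers were 1573 to 1750 for OB and 1333 to 2701 for BS. They were 999.8 to 1213 for HC and 949.8 to 1105 for CX. Within this list Pdgfra had its highest mean in the HC, at 146. The part of these cells in the differences below was not tested.

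To show the sequence upstream of the obligatory Grin1 and of Grin2c, one of the pair of subunits with the highest levels per length, the 250 bases before each RefSeq start are given (GRCm38.p6, 5′ to 3′). Capitals mark a motif match. Grin1 is at chr2:25319188-25319437, minus strand, and Grin2c at chr11:115267244-115267493, minus strand.
Grin1: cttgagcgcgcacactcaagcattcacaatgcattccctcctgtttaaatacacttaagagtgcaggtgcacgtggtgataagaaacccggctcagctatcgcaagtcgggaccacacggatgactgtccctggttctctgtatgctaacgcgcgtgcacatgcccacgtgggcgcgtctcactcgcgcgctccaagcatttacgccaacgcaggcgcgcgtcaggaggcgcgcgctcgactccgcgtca
Grin2c: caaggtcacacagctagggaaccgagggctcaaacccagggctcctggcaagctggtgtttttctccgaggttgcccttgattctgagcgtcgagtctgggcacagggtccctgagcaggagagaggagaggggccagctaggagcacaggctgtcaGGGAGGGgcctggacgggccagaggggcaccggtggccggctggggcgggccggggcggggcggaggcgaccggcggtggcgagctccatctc
Motifs were searched on both strands for 3 families of transcription factor, NFI (TTGGCA), Maz (GGGAGGG) and NK2 (TNAAGTGG). The Grin2c sequence held a single match, that of Maz at position -93 from the start, and the Grin1 sequence held none of the 3. Of 32851 RefSeq promoters of the same length, 12.3% held the NFI letters, 19.7% the Maz letters and 2.74% the NK2 letters. The Grin2c sequence was 68.8% G and C, compared with 58.8% for Grin1. The letters describe these windows, and no binding was measured here.

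Levels of different subunits were compared per kb of exon (GENCODE M21, union of exons). Averaged over the 11 samples, Grin2c had a level of 112 per kb, above 87.6% of the 13362 tested genes with a known length, and Grin3a of 70.8 per kb, above 80.5% of the genes. Their order depended on the length used, since with the longest transcript Grin3a had 116 and Grin2c 115 per kb, and with the coding length 255 and 152 per kb. By the union of exons, Grid1 reached 16.3 per kb, below the median gene at 19.98. The obligatory subunit Grin1 had a level of 10.04 per kb, Grin2b of 5.92 per kb and Grin2a of 2.62 per kb. Grin2d and Grin3b stood lowest, at 1.04 and 0.917 per kb. The order of Grin1, Grid1 and Grin2b also depended on the length. With the longest transcript Grin1 had 22.8, Grid1 17.0 and Grin2b 6.11 per kb. With the coding length Grin1 had 33.9, Grid1 32.2 and Grin2b 33.1 per kb. Grin2c and Grin3a together therefore made up most of the Grin signal in every region.

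Which of the 2 led differed by region. In the OB, Grin2c made up 41.8% ± 2.92 (SD, n = 3) of the Grin total per kb and Grin3a 47.9% ± 2.66 (SD, n = 3). In the HC the shares were 69.1% ± 8.05 (SD, n = 3) for Grin2c and 17.3% ± 3.20 (SD, n = 3) for Grin3a. The CX had 77.4% ± 1.34 (SD, n = 2) for Grin2c and 15.9% ± 3.53 (SD, n = 2) for Grin3a. In the BS, Grin2c took 41.9% ± 8.38 (SD, n = 3) and Grin3a 48.2% ± 11.4 (SD, n = 3), and the ratio of Grin3a to Grin2c ranged from 0.818 to 1.88 between samples. In all 5 HC and CX samples Grin2c exceeded Grin3a per kb, and in all 3 OB samples Grin3a exceeded Grin2c, by 1.06 to 1.29 times. Grin1 held between 2.91% (CX) and 6.36% (HC) of the total as region means. Its share was 5.66% (CX) to 11.7% (HC) with the longest transcript and 5.23% (CX) to 9.98% (HC) with the coding length. With the longest transcript the ratio of Grin3a to Grin2c was 1.68 to 2.05 for OB and 1.30 to 2.99 for BS samples, and with the coding length 2.81 to 3.43 and 2.18 to 4.99, so that Grin3a then exceeded Grin2c in all 3 BS samples rather than in 1. In the HC and CX samples the ratio stayed below 1 with all 3 lengths.

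**Figure D2:**
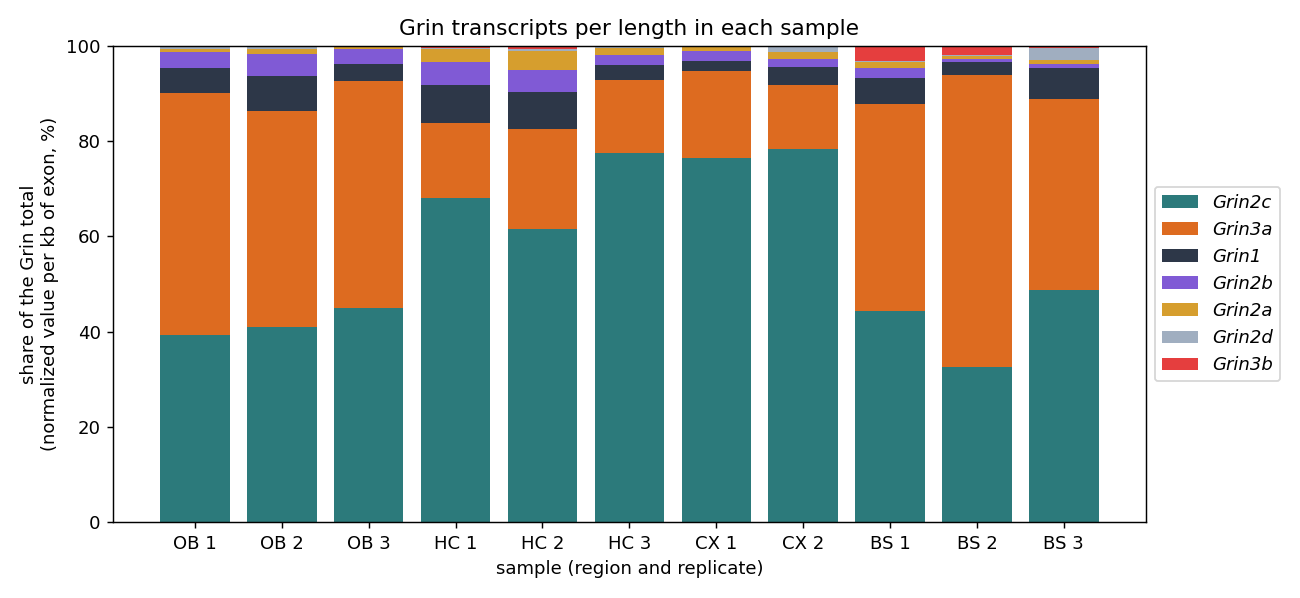
Share of each Grin subunit in the summed Grin value per kb of exon (y axis, percent) for each of the 11 samples (x axis, region and replicate). Grin2c takes 61.6% to 78.3% for HC and CX samples, and Grin3a takes 39.9% to 61.2% for OB and BS samples.

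Grin3a encodes a glycine-binding subunit and lies on chromosome 4 from 49661611 to 49845744 (GRCm38, minus strand, 9 exons in the longest transcript). The normalized values were 1674, 1799 and 1835 in the 3 OB samples, 279, 428 and 343 for HC, 518 and 379 for CX, and 533, 1182 and 587 for BS. All 3 OB samples were above every other sample, all 3 BS samples were above every HC and CX sample, and the HC and CX samples overlapped. The region means were 1769.6 ± 84.3 (SD, n = 3) for OB, 767 ± 360.1 (SD, n = 3) for BS, 448 ± 98.2 (SD, n = 2) for CX and 350.1 ± 75.1 (SD, n = 3) for HC. On the log2(value + 1) scale, Grin3a was higher in the OB than in the HC by 2.36 (SE 0.26, limma adjusted p = 4.08e-05), than in the CX by 1.995 (SE 0.29, limma adjusted p = 0.000795) and than in the BS by 1.30 (SE 0.26, limma adjusted p = 0.00322). It was lower in the HC than in the BS, with an HC minus BS difference of -1.06 (SE 0.26, limma adjusted p = 0.0301). The CX minus BS difference of -0.70 (95% interval -1.32 to -0.07) had an adjusted p of 0.152 in limma, although the values did not overlap. HC and CX differed by -0.36 (95% interval -0.98 to 0.26, limma adjusted p = 0.681).

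The spread of Grin3a in the BS came from a single high value of 1182 in the second BS sample. That sample also had the highest summed astrocyte markers of the BS (287214, against 97870.3 and 166840 in the others) and the lowest summed choroid plexus markers (75222.3, against 358736 and 178393). Its summed oligodendrocyte precursor markers were the highest of the BS, at 2701 against 1333 and 1659. The part of any of these in the Grin3a value was not tested. Without this sample the HC minus BS difference was -0.70 and was no longer called (limma, adjusted p over 0.05). The same call was also lost without the second OB sample, the first HC sample or the third HC sample. All 3 differences from the OB were called under every alternative and with each sample left out.

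Grin2c encodes the glutamate-binding GluN2C subunit and lies on chromosome 11 from 115249169 to 115267243 (GRCm38, minus strand, 15 exons in the longest transcript), just downstream of the sequence shown above. Its values were 533, 666 and 712 for OB, 497, 516 and 719 for HC, 883 and 909 for CX, and 223, 258 and 295 for BS. Both CX samples were above all others, all 3 BS samples were below all others, and the OB and HC samples overlapped. The means were 896 ± 18.4 (SD, n = 2) for CX, 637 ± 92.9 (SD, n = 3) for OB, 577 ± 123 (SD, n = 3) for HC and 259 ± 35.9 (SD, n = 3) for BS. Grin2c was lower in the BS than in the CX by 1.80 on the log2 scale (SE 0.21, limma adjusted p = 7.43e-05), than in the OB by 1.30 (SE 0.19, limma adjusted p = 0.000285) and than in the HC by 1.14 (SE 0.19, limma adjusted p = 0.00194). The separation of the CX from the other forebrain regions did not pass the test, with an OB minus CX difference of -0.50 (95% interval -0.96 to -0.05, limma adjusted p = 0.247) and an HC minus CX difference of -0.65 (95% interval -1.11 to -0.20, limma adjusted p = 0.193). OB and HC differed by 0.15 (95% interval -0.26 to 0.56, limma adjusted p = 0.766).

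Grin2b encodes the glutamate-binding GluN2B subunit and lies on chromosome 6 from 135713233 to 136173511 (GRCm38, minus strand). It had values of 232, 374 and 244.5 for OB, 170.5, 188 and 92.5 for HC, 123 and 93.5 for CX, and 53.6, 18.0 and 27.4 for BS. The OB samples were above and the BS samples below all others, while the HC and CX overlapped. From a mean of 284 ± 78.6 (SD, n = 3) for OB, Grin2b went through 150.4 ± 50.9 (SD, n = 3) for HC and 108 ± 20.9 (SD, n = 2) for CX to 33.0 ± 18.5 (SD, n = 3) for BS. This was the widest range of region means among the 6 subunits with over 100 reads in all, at 8.60 times. Grin2b was lower in the BS than in the OB by 3.17 on the log2 scale (SE 0.39, limma adjusted p = 5.15e-05), than in the HC by 2.23 (SE 0.39, limma adjusted p = 0.00259) and than in the CX by 1.81 (SE 0.43, limma adjusted p = 0.014). The call against the CX was lost when either CX sample was left out. The OB minus HC difference of 0.94 (95% interval 0.12 to 1.77) had an adjusted p of 0.192 in limma, and the OB minus CX difference of 1.36 (95% interval 0.44 to 2.28) an adjusted p of 0.0939.

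Grin1, the obligatory subunit, lies on chromosome 2 from 25291181 to 25319187 (GRCm38, minus strand). It had values of 137, 227 and 109 for OB, 112, 126 and 58.3 for HC, 44.0 and 85.9 for CX, and 51.5, 44.1 and 75.8 for BS. The OB samples were above all CX and BS samples and overlapped the HC. Grin1 was higher in the OB (158 ± 61.8, SD, n = 3) than in the BS (57.1 ± 16.6, SD, n = 3) by 1.42 on the log2 scale (SE 0.40, limma adjusted p = 0.024). This call was lost without the first or second OB sample or the first or second BS sample. The OB minus CX difference of 1.28 (SE 0.44) had an adjusted p of 0.131 in limma. Exons of Grin1 share 1307 bases with the antisense gene Grin1os, which had values between 0 and 16.2. Whether reads were counted by strand is not given in the sources used here, so reads of this pair cannot be told apart.

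Grin2a encodes the glutamate-binding GluN2A subunit and lies on chromosome 16 from 9567898 to 9995560 (GRCm38, minus strand). The values were 30.4, 55.3 and 19.9 for OB, 70.0, 122 and 52.1 for HC, 37.7 and 67.5 for CX, and 23.1, 20.03 and 18.9 for BS. Unlike the other GRIN2 genes, it was highest in the HC, and its HC and CX samples were above all BS samples. Grin2a was higher in the HC (81.5 ± 36.5, SD, n = 3) than in the BS (20.7 ± 2.17, SD, n = 3) by 1.84 on the log2 scale (SE 0.48, limma adjusted p = 0.0384). This call was lost in 8 of the 11 fits that left out a sample, with adjusted p-values up to 0.19 in limma, and without the filter on low counts. The OB minus HC difference of -1.22 (95% interval -2.24 to -0.20) had an adjusted p of 0.167 in limma, and the other pairs gave no call.

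Among the GRIN1 and GRIN2 genes, the second OB sample had the highest value of the OB for Grin1, Grin2a and Grin2b, and the third HC sample had the lowest of the HC. Grin2d, near the floor, did the same (15.8 in the second OB and 0.367 in the third HC sample). Grin2c did not, since it was highest in the third OB sample (712) and the third HC sample (719) of their regions. The second OB sample had the highest summed neuron markers of the OB, at 6702 against 6082 and 5158, and the highest value of the OB for 8 of the 14 markers, while the first OB sample had the highest for the other 6. The third HC sample had the lowest summed neuron markers of the HC, at 3978 against 5426 and 5662, and the lowest value for 10 of the 14. Neuron markers were not alone in this. The third HC sample was also lowest of the HC for summed oligodendrocyte (18640 against 39949 and 39441), microglia (1279 against 3504 and 3778), endothelial and neuroblast markers. It was highest for astrocyte markers. The second OB sample was also highest of the OB for microglia (2791) and neuroblast (973) markers. The part of neuronal RNA, or of RNA of these other cells, in the subunit values was not tested. Over the regions the 14 neuron markers did not move in a single direction, since in OB minus BS 4 were higher (Gad1, Gad2, Slc17a7 and Syt1) and 4 were lower (Nefl, Nefm, Snap25 and Stmn2).

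Grin2d and Grin3b were near the detection floor. Grin2d, a glutamate-binding subunit on chromosome 7 from 45831883 to 45878378 (GRCm38, minus strand), had 70 reads in all 11 samples, with values between 0.367 and 18.9. Its 95% intervals of the differences between regions were wide, from -0.14 to 4.10 on the log2 scale for OB minus HC, and no difference was called. Grin3b, a glycine-binding subunit on chromosome 10 from 79970715 to 79977190 (GRCm38, plus strand), had 31 reads in all. Its values were 10.5, 10.02 and 2.10 for BS, 2.499, 3.65 and 1.83 for HC, 0 and 1.53 for CX, and 1.09, 0 and 0 for OB. All OB and CX samples were below 3 reads. Exons of Grin3b share 1059 bases with Tmem259 on the opposite strand, and those of Grin2d 643 bases with Gm45441, so that these low values are uncertain. With no filter on low counts, Grin3b was called as higher in the BS against the OB and against the other regions.

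Grid1, the delta receptor gene on chromosome 14 from 34820108 to 35583379 (GRCm38, plus strand, 16 exons in the longest transcript), differed least. Its values were 98.8, 116 and 126 for OB, 63.1, 98.6 and 109 for HC, 75.4 and 112 for CX, and 47.3, 136 and 88.4 for BS. The samples of every pair of regions overlapped, and the region means lay between 90.4 ± 24.2 (SD, n = 3) for HC and 114 ± 13.8 (SD, n = 3) for OB. The OB minus HC difference was 0.36 (95% interval -0.43 to 1.15), the OB minus CX difference 0.30 (95% interval -0.59 to 1.18) and the OB minus BS difference 0.44 (95% interval -0.35 to 1.23) on the log2 scale. A level 2-fold higher in the OB lay within each of these intervals.

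**Figure D3:**
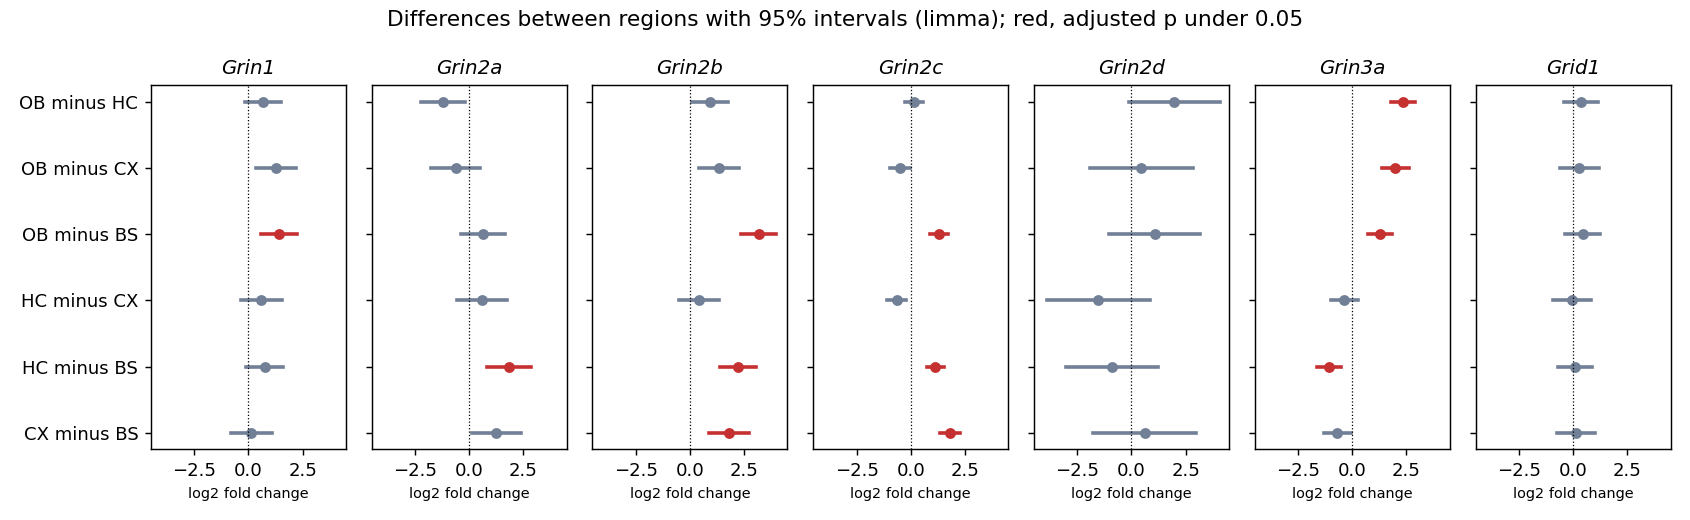
Log2 fold change between each pair of regions (x axis) for the 7 subunits tested, with points for the limma estimate and lines for its 95% interval, and red for an adjusted p under 0.05. For Grin3a the 3 OB differences are red and to the right of 0, for Grin2b and Grin2c those against the BS are, and for Grid1 no interval excludes 0.

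Counted by pair of regions, the subunits were called most often against the BS. In OB minus BS, 4 subunits were higher in the OB (Grin1, Grin2b, Grin2c and Grin3a), where 15.0% of all genes tested were called in either direction. In HC minus BS, Grin2a, Grin2b and Grin2c were higher in the HC and Grin3a was lower, against 4.63% of all genes. In CX minus BS, Grin2b and Grin2c were higher in the CX, against 10.9%. OB minus HC and OB minus CX each had Grin3a alone, where 7.11% and 4.91% of all genes were called. No subunit was called in HC minus CX by limma, edgeR or DESeq2, although 1 of the 7 tested had an unadjusted p under 0.05 with each tool (Grin2c in limma), and 1.23% of all genes were called. These pairs share samples and are not independent of each other.

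Each region was also set against the samples of the others, with the thresholds of the study's methods (an unadjusted p under 0.01, a change of over 1.5-fold, and 2 or more replicates with a value over 5). Grin1, Grin2b and Grin3a were higher in the OB, where 8.04% of all genes tested were called. Of these, only Grin3a also passed an adjusted p of 0.05, with a difference of 1.87 on the log2 scale (SE 0.32, limma adjusted p = 0.00362), while Grin2b (limma adjusted p = 0.104) and Grin1 (limma adjusted p = 0.11) did not. The calls of Grin1 and Grin2b were both lost without the first or second OB sample or the first or the third BS sample. Without the third OB sample that of Grin2b was lost, and without the third HC, first CX or second BS sample that of Grin1. Both calls were also lost when samples of the same number were fitted as a block. Grin2b and Grin2c were lower in the BS, with differences of -2.48 (SE 0.42, limma adjusted p = 0.00371) and -1.36 (SE 0.20, limma adjusted p = 0.0012), where 9.03% were called. None of the subunits was called in the HC, where 1.28% of all genes were called and 2 subunits had an unadjusted p under 0.05 in limma. edgeR called none with TMM factors and 1 with RLE factors, and DESeq2 called 2. None was called in the CX, against 2.77% of all genes. There 1 subunit had an unadjusted p under 0.05 in limma, and neither edgeR nor DESeq2 made a call.

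The other ionotropic glutamate receptors, the AMPA (Gria) and kainate (Grik) genes, were counted for comparison. Of these 9 genes, 7 differed between regions by the F test (16.5% of all genes), and 4 were higher in the OB than in the other regions by the study's thresholds (Gria1, Gria2, Gria3 and Grik3, against 8.04% of all genes in either direction). In the BS, 2 were higher and 2 lower, against 9.03%. The median OB minus others difference was 1.77 on the log2 scale for these genes and 1.10 for the 7 NMDA and delta subunits tested, against 0.02 for all genes tested.

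Genes that act around the receptors were taken from a list of 56, all of which were tested. Between regions, 23 of the 56 differed by the F test, which called 16.5% of all genes. Relative to the other regions, 13 were lower and 3 higher in the BS, where 9.03% of all genes were called. In the OB 5 were higher (8.04% of all genes called), in the CX 3 were higher (2.77%) and in the HC 1 was lower (1.28%), and the shares for OB and HC are near those of all genes. The median BS minus others difference was -0.52 for this list and 0.02 for all genes tested (log2 scale).

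Of the 11 genes of co-agonist supply and removal, 6 differed between regions, against 16.5% of all genes. Slc6a9 encodes the glycine transporter GlyT1, which clears glycine around NMDA receptors. Its values were 1888, 1509 and 2002 for OB and 1213, 2182 and 1484 for BS, but 111, 163 and 172 for HC and 158 and 189 for CX. Slc6a9 was thus higher in the OB than in the HC by 3.60 on the log2 scale (limma adjusted p = 2.08e-07) and lower in the HC than in the BS, with an HC minus BS difference of -3.42 (limma adjusted p = 2.84e-07), and the OB and BS samples overlapped. Slc6a9 and Grin3a shared the order of OB above BS above CX above HC in their region means.

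Gldc encodes the glycine-degrading decarboxylase of the glycine cleavage system. It had values of 36.8, 62.1 and 37.9 for BS, where the lowest value of any other sample was 680.2, and was lower in the BS than in the other regions, with a difference of -4.45 on the log2 scale (limma adjusted p = 1.5e-08). Dao encodes D-amino acid oxidase, which degrades D-serine, and ran in the opposite direction. Its values were 222, 242 and 413 for BS and 3.26, 7.11 and 1.62 for OB, and it had no read in any HC or CX sample. The serine synthesis genes Phgdh, Psat1 and Psph were each lowest in the BS. Phgdh reached 312 ± 113 (SD, n = 3) for BS and between 656 and 1098 as means elsewhere. Psat1 reached 677 ± 191 (SD, n = 3) for BS and between 1238 and 2143 elsewhere, and Psph 118 ± 35.0 (SD, n = 3) and between 246 and 325. Srr, which makes D-serine, had means between 197 (BS) and 330.1 (CX) and was not called (limma adjusted p = 0.117).

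**Figure D4:**
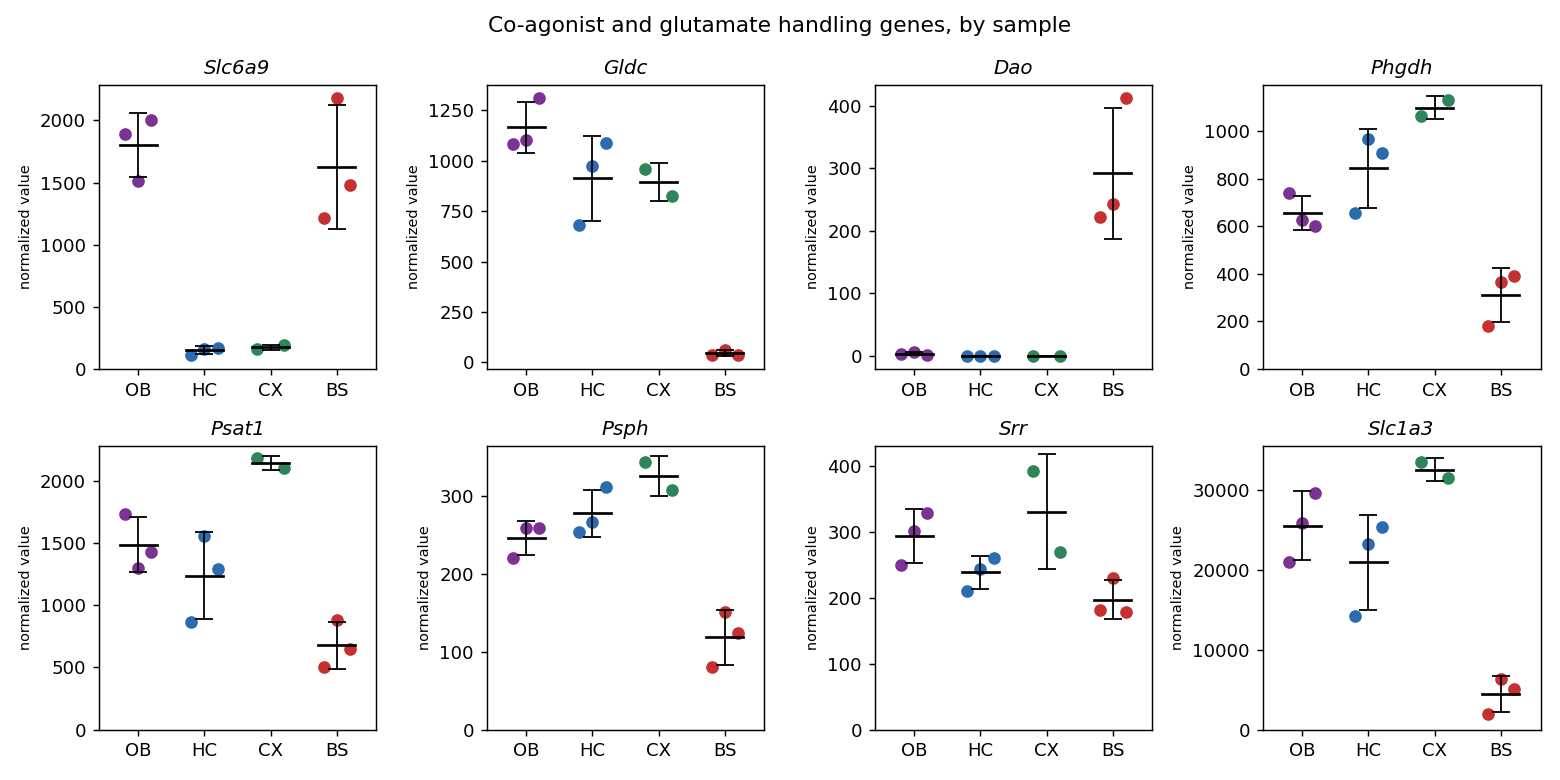
Normalized value (y axis) of 7 genes of co-agonist supply and removal and of the glutamate transporter gene Slc1a3 in every sample, by region (x axis). Points are samples, horizontal bars region means and error bars SD (OB, HC and BS n = 3, CX n = 2). Slc6a9 is above 1000 in all OB and BS samples and below 200 in all HC and CX samples, and Gldc is below 63 for BS samples.

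Of the 5 genes of glutamate supply and uptake, Glul, Slc1a3 and Slc7a11 were lower in the BS than in the other regions, where 9.03% of all genes were called. Slc1a3, the glutamate transporter GLAST, had means of 4469.95 ± 2257 (SD, n = 3) for BS, 25534 ± 4335 (SD, n = 3) for OB, 20962 ± 5938 (SD, n = 3) for HC and 32563 ± 1397 (SD, n = 2) for CX. Slc7a11, the cystine and glutamate exchanger, had 880 ± 358 (SD, n = 3) for BS and between 1961 and 2705 as means elsewhere. Slc1a2, the transporter GLT-1, did not pass the F test (limma adjusted p = 0.165), with means from 128002 (BS) to 507178 (CX). Slc1a2 and Slc1a3 are also 2 of the 10 astrocyte markers.

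Among the 9 delta receptor partners, 3 differed between regions (Cbln3, Nrxn2 and Nrxn3), against 16.5% of all genes. Of the cerebellins, Cbln1, Cbln2 and Cbln4 had means below 20 in each region. Cbln3 had no read in the OB and CX and values of 4.21, 16.0 and 194 for BS, so that a single BS sample carried most of its reads. Cbln3 is also 1 of 6 cerebellar granule cell markers. The same BS sample had the highest value of the BS for 5 of these 6, among them Gabra6, which had no read outside the BS and 61.0 in that sample. Etv1 and Pax6, of the same list, had their highest means in the OB, and the summed list was 1727 to 1753 for OB and 550 to 1461 for BS samples. The part of granule cell RNA was not tested. Nrxn2, a neurexin, had a mean of 187 ± 82.9 (SD, n = 3) for BS and between 428 and 658 elsewhere.

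Of the 17 scaffold and auxiliary genes, 7 differed between regions (16.5% of all genes), and 4 were lower in the BS than in the other regions (Dlg4, Dlgap2, Dlgap3 and Shank1, against 9.03% of all genes). Dlg4, the scaffold PSD-95, had 308 ± 9.36 (SD, n = 3) for BS and means between 547 and 732 elsewhere. Dlgap3, a scaffold protein that binds PSD-95, ran from 27.0 ± 9.54 (SD, n = 3) for BS through 43.4 for OB and 106 for HC to 186 ± 56.3 (SD, n = 2) for CX. Dlgap2, of the same family, had 15.6 ± 3.47 (SD, n = 3) for BS and means between 49.1 and 92.8 elsewhere. Of the 14 kinases and effectors, 4 differed, also against 16.5%. Camk2a, the calcium-dependent kinase best known from forebrain neurons, had means of 59.7 ± 47.8 (SD, n = 3) for BS, 1084 ± 232 (SD, n = 3) for OB, 4560.4 ± 1513 (SD, n = 3) for HC and 5076 ± 695 (SD, n = 2) for CX. The vesicular glutamate transporter gene Slc17a7, a neuron marker, was also lowest in the BS, at 15.2 ± 5.35 (SD, n = 3), and had 93.9 for OB, 154 for HC and 180.5 for CX. Of the 14 neuron markers, 3 were lower in the BS than in the other regions (Rbfox3, Slc17a7 and Syt1) and 5 were higher (Eno2, Nefl, Nefm, Snap25 and Stmn2), and Snap25 had its highest mean there, at 2299. The part of neuronal RNA in the Camk2a values was not tested.

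Finally, the genes with the pattern most like that of the 3 subunits that differed were sought, by the root mean square difference of log2(value + 1) over the 11 samples after each gene's own mean was removed, among 13609 genes. Nearest to Grin3a was Slc6a11, the GABA transporter GAT-3, at 0.232, followed by Neto2, an auxiliary subunit of kainate receptors, at 0.254, and Dtx4, at 0.334, whereas the median of all genes was 1.10. Slc6a11 had means of 28291 for OB, 13048 for BS, 6809 for CX and 4526 for HC. Like Grin3a, Slc6a11, Neto2 and Dtx4 each had the second BS sample highest within the BS. The choice of these genes over the same samples favours such a likeness. Nearest to Grin2c were Mcur1, a regulator of mitochondrial calcium uptake, at 0.216, and Ephx2, the soluble epoxide hydrolase, and Fbrsl1, both at 0.217, with a median of 0.845. Grin2b had no neighbour as close, with Tdrd6 at 0.471, the transcription factor Bcl11a at 0.472 and D930015E06Rik at 0.482, and a median of 1.38. The samples share library, depth and dissected tissue across genes, so these distances are descriptions.

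**Figure D5:**
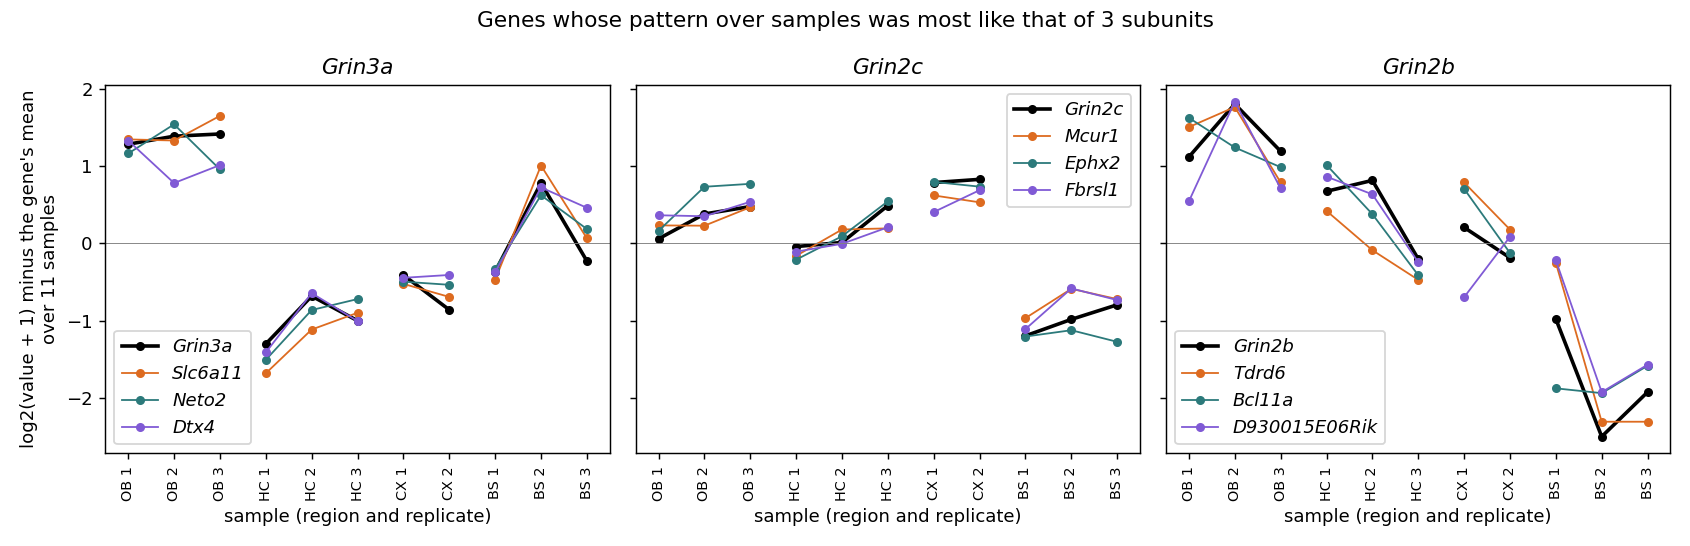
Log2(value + 1) minus the gene's own mean (y axis) in each of the 11 samples (x axis, region and replicate), with Grin3a, Grin2c and Grin2b in black beside the 3 genes nearest to each. Slc6a11, Neto2 and Dtx4 follow Grin3a with root mean square differences of 0.232 to 0.334, and the genes beside Grin2b are farther, at 0.471 to 0.482.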

How the data were processed

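RNA of sorted Aldh1l1-eGFP+ astrocytes had been made into total RNA libraries with rRNA depletion (Trio RNA-Seq, paired-end). The authors mapped reads with STAR 2.5.0a to mm10, counted them on UCSC transcripts and normalized with DESeq2 1.20.0. The deposited signal values are read counts divided by a size factor per sample. All non-zero values were whole multiples of a single step within 0.01, so reads were recovered. Genes passing edgeR filterByExpr (minimum count 10) were tested with limma 3.58.1 (R 4.3.3) on log2(value + 1), with the variance trended on the mean, two-sided, with p-values adjusted by Benjamini-Hochberg over all 13875 genes. The fold changes understate those of low genes. edgeR 4.0.16, DESeq2 1.42.0, a pseudocount of 0.25, no filter, other gene lengths, a replicate block and the omission of each sample were alternatives. The pipeline was tested on simulated data. Named were all 8 subunits, up to 12 partner genes with the smallest F test p, fixed partners (cerebellins, Srr, Slc1a2, Slc1a3, Dlg4) and the 3 genes most like each subunit that differed. Other list genes are named only with a count. The members and lists were chosen with earlier results of these data known. Lengths and coordinates are from GENCODE M21 (GRCm38) and promoters from RefSeq. A result for 1 listed partner is not reported here.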

Additional observations from a re-analysis of the deposited data

How the results depend on the processing

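Over all comparisons and subunits tested, the alternatives other than leaving out a sample gave 501 tests, in which 12 calls were gained and 5 lost, and leaving out each sample gave 858, with 10 gained and 30 lost. No subunit quoted with a difference changed its direction. Against the other regions, the OB had 1 subunit called instead of 3 with an adjusted p, 1 with the replicate block, and 1 to 3 when a sample was left out. In the HC against the other regions, 1 was called by edgeR with RLE factors, 2 by DESeq2 and 1 with the replicate block, and 0 to 2 when a sample was left out, instead of 0. Over the 4 regions DESeq2, by a likelihood ratio test, called 5 subunits instead of the 3 of the limma F test. In OB minus CX it called 2 instead of 1. Leaving out a sample gave 1 to 2 calls in OB minus CX, 2 to 4 in HC minus BS and 1 to 2 in CX minus BS. The cause of these changes was not tested. With the length of the longest transcript, the Grin2c share was 31.0% (OB), 58.6% (HC), 68.3% (CX) and 31.3% (BS), and with the longest coding length 20.9%, 45.1%, 55.6% and 22.0%, since these lengths shorten Grin3a more than Grin2c. Same-numbered samples of different regions had correlations of their deviations between -0.16 and 0.25, over 0.1 in 3 of 15 pairs. Of the 11 samples, 7 correlated best with their own number. These values do not decide whether the numbers pair samples, and the main fits did not use the numbers. The block changed no count of calls by over 1.5 times other than those given. Depth limits Grin2d and Grin3b, and the CX has only 2 samples.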
